A study of Mus musculus with 14 samples.

Results

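Hexokinases trap glucose in the cell by phosphorylating it to glucose 6-phosphate, and facilitative glucose transporters of the *Slc2a* family carry it across the plasma membrane in either direction. Hepatocytes are known for *Slc2a2* (GLUT2), a low-affinity transporter, and for the regulatory protein encoded by *Gckr*, which holds the liver's main glucose-phosphorylating enzyme inactive in the nucleus. The high-affinity hexokinases (*Hk1*, *Hk2*, *Hk3*), the related *Hkdc1* and the widely expressed transporter *Slc2a1* (GLUT1) are known mainly from other tissues and cell types. These 7 genes were taken by name from the 55487 genes of a count table of mouse liver RNA. The gene of the liver's main glucose-phosphorylating enzyme was not analysed here, so every share below is a share of *Hk1*, *Hk2*, *Hk3* and *Hkdc1* together and not of all hexokinase RNA.

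The right liver lobe came from 14 male TALLYHO mice aged 8 to 12 weeks, an inbred strain with polygenic type 2 diabetes in which no allele was altered. By oral gavage, 7 mice had received water as vehicle and 7 had received 20 mg/kg indole, a bacterial product of tryptophan, as 2 doses per day on 7 consecutive days, with further doses between a glucose and an insulin tolerance test that all the mice underwent before collection. Each mouse is called by its library, from G1 to G14. The comparison asks whether the transcripts that govern hepatic glucose uptake and phosphorylation differed after indole.

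The libraries held 15197498 to 21060376 gene reads each, and the 11 hepatocyte markers in the table, among them *Alb* and *Ttr*, summed to between 82513 and 118458 CPM (counts of a gene scaled to a library of 1e+06 reads) in every library. Indole-treated mouse G8 stood apart in immune transcripts. Its 21 Kupffer cell and macrophage markers summed to 903 CPM, where the rest of the indole group had 201 to 329 CPM and vehicle-treated mice had 178 to 451 CPM, and its 15 interferon gamma response genes summed to 1935 CPM, against 272 to 548 CPM in all other mice. The interferon gamma list was added because earlier results of these data had singled out mouse G8, so its sum is a description only. Values of the hexokinases that this mouse moved are given without it as well.

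The levels of the 7 genes spanned more than 3 orders of magnitude on the scale of CPM per kilobase of exon, the scale on which genes can be compared with one another. *Slc2a2* was highest, at 112±11.9 CPM per kilobase (SD, *n*=14), followed by *Gckr* at 33.1±2.56 and *Slc2a1* at 3.15±0.834. This order held in 14 of 14 mice at each step. The hexokinases were far lower, at 0.416±0.614 CPM per kilobase for *Hk3*, 0.276±0.0727 for *Hk1*, 0.0582±0.0575 for *Hk2* and 0.0492±0.0467 for *Hkdc1*. *Hk1* lay above *Hk2* in 14 of 14 mice, but *Hk3* exceeded *Hk1* in only 6 of 14 and *Hk2* exceeded *Hkdc1* in only 6 of 14, so neither of these neighbouring pairs had an order beyond its spread. Without mouse G8 the mean of *Hk3* was 0.256 CPM per kilobase and that of *Hk1* 0.270, and by the median over 14 mice *Hk1* (0.258) also stood above *Hk3* (0.225).

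**Figure D1:**
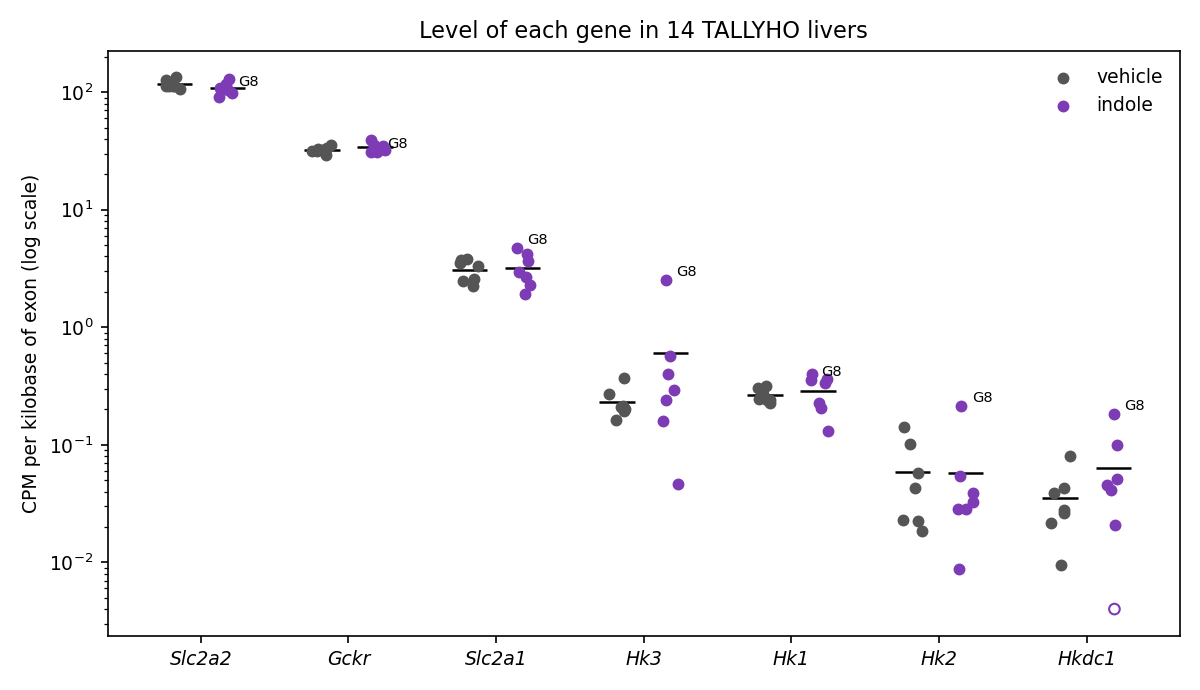
Level of the 7 genes in CPM per kilobase of exon (log axis), with 1 point per mouse, vehicle in grey and indole in purple, and the group mean as a bar. The open circle at the bottom is indole-treated mouse G12, which had 0 reads on *Hkdc1*, drawn at an arbitrary height. *Slc2a2*, *Gckr* and *Slc2a1* form separate tiers above the 4 hexokinase genes, and mouse G8 is the highest mouse for *Hk3*, *Hk2* and *Hkdc1*.

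The order among the low genes depended on the length by which reads were divided. The table's length is the union of all exons, which for *Hk1*, with 20 annotated transcripts, is 8532 bases, against 4278 bases in its longest transcript of the consensus coding set (CCDS). With the latter length *Hk1* rose to 0.550 CPM per kilobase and stood above *Hk3*, which was then at 0.476. For *Gckr* the union of exons is 4335 bases and the longest CCDS transcript 2014 bases, with which its level became 71.3 CPM per kilobase. The positions below are those of the table, on GRCm38.

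*Slc2a2* (ENSMUSG00000027690, chromosome 3 from 28697903 to 28731359, plus strand) had between 7962 and 15764 reads per mouse. Its level ran from 608 CPM through a median of 654 to 769.7 CPM in the vehicle group, and from 521 through 619 to 750.3 CPM in the indole group. Mice G5, G3 and G8, all indole-treated, lay below every vehicle-treated mouse, and the groups overlapped otherwise. The log2 fold change of indole over vehicle was −0.11 (standard error 0.0823, 95% interval −0.29 to 0.057, unadjusted *p*=0.179 and adjusted *p*=0.998 from edgeR). The interval reached further below 0 than above it.

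*Gckr* (ENSMUSG00000059434, chromosome 5 from 31297443 to 31327314, plus strand) was the steadiest of the 7 genes. Its level ran from 126 CPM through 142 to 153 CPM in the vehicle group and from 135 through 142 to 171 CPM in the indole group. Its 2 highest mice, G3 and G12, were indole-treated, and the remaining 5 indole-treated mice lay within the vehicle range. The log2 fold change was 0.069 (standard error 0.0688, 95% interval −0.075 to 0.21, adjusted *p*=0.998 from edgeR).

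*Slc2a1* (ENSMUSG00000028645, chromosome 4 from 119108711 to 119137983, plus strand), known from endothelium at blood-tissue barriers, had between 115 and 266 reads per mouse. Its level ran from 7.79 CPM through 11.6 to 13.4 CPM in the vehicle group and from 6.78 through 10.4 to 16.6 CPM in the indole group. Indole-treated mice G8 and G7 were the highest and indole-treated mouse G2 the lowest of all. The log2 fold change was 0.055 (standard error 0.187, 95% interval −0.34 to 0.45, adjusted *p*=0.998 from edgeR), and −0.062 without mouse G8.

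The erythroid markers leaned higher after indole without passing the adjusted threshold. All 6 of the erythroid genes tested were higher in the indole group, where 6489 of all 12653 genes tested were higher. Of the 6, 5 had an unadjusted *p* below 0.05, against 3.81% of all genes tested, and 0 an adjusted *p* below 0.05 in edgeR. The 11 erythroid genes of the table summed to 208 to 389 CPM in vehicle-treated and 269 to 1098 CPM in indole-treated livers. Indole-treated mice G3, G7 and G8 lay within the vehicle range of this sum. Over the 14 mice Pearson's r of *Slc2a1* with the sum was −0.081 on the log2 scale (permutation *p*=0.780, adjusted over 40 relations 0.863) and Spearman's rho was 0.0022 (permutation *p*=1.0). Without mice G5 and G14, r was −0.229. Within the groups of 7, r was 0.773 for vehicle and −0.367 for indole. The part of erythroid RNA in the level of *Slc2a1* was not tested.

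The ratio of *Slc2a2* to *Slc2a1*, each per kilobase, had a median of 36.1 in vehicle-treated (27.6 to 56.8) and 33.1 in indole-treated livers (21.96 to 55.7). The mean of its log2 value was lower by 0.144 in the indole group, which was within the spread between mice (exact permutation test over all relabellings, two-sided *p*=0.568).

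The sequences before the start of transcription of the highest gene, of *Hk3*, which varied most in the indole group, and of *Hk2* are shown because *Slc2a2* dominated the liver levels while *Hk3* and *Hk2* were the genes with the highest variation of CPM relative to the mean over 14 mice. They are the 250 bases upstream of the RefSeq start on GRCm38.p6, with capitals for matches on either strand to 6 short motifs. The letters GTTAAT are found in sites of the hepatocyte factor HNF1. The promoter elements searched were the GC box with the letters GGGCGG, the CCAAT box with its own letters, and the TATA box with the letters TATAAA. The letters GAGGAA are found in sites of ETS factors such as the myeloid factor PU.1, and TTCNNNGAA is the interferon gamma activated sequence.
*Slc2a2*, chr3:28697653-28697902, plus strand: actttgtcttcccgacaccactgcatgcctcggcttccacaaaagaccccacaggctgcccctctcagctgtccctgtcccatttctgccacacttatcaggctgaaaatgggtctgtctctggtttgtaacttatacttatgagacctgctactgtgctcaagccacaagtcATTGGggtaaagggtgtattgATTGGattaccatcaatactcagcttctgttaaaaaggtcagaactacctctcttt
*Hk3*, chr13:55021386-55021635, minus strand: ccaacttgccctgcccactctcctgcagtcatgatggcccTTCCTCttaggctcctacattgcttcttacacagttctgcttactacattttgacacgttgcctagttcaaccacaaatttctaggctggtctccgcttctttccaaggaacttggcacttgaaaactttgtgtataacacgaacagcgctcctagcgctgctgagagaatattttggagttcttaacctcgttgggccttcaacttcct
*Hk2*, chr6:82774455-82774704, minus strand: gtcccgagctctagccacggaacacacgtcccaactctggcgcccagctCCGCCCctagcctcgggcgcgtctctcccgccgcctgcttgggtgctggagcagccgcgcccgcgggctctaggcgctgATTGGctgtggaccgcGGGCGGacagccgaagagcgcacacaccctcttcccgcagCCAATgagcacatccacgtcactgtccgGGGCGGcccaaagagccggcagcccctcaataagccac

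The *Slc2a2* and *Hk3* windows were each 47.2% G and C, against 69.6% for *Hk2* and a median of 52.4% over 32817 such windows in RefSeq. The *Hk2* window held 3 GC boxes and 2 CCAAT boxes, and that of *Slc2a1* (66.4% G and C) held 2 GC boxes, letters found in 32.7% of all windows. The *Slc2a2* window held 2 CCAAT boxes, which 33.8% of windows contain. *Hk3* had a single match, to GAGGAA on the opposite strand at positions −210 to −205, and 23.3% of windows have such a match. The window at the 62340421 start of *Hk1* also held 1, at −131 to −126. No match to GTTAAT was found in these 3 windows, but the *Gckr* window held 1, a match that 6.44% of all windows have, and it is shown with 12 bases on each side because it is the only GTTAAT match among the 7 genes.
*Gckr*, chr5:31297492-31297521, plus strand: cagggttcttagGTTAATcatctccatggc
This site lies 59 to 54 bases before the RefSeq start but inside the gene as the count table places it. *Hk1* has RefSeq starts at 62379908 and 62340421 on chromosome 10, with windows of 49.6% and 62.8% G and C. The TATA box letters and the interferon gamma activated sequence occur in 12.4% and 7.01% of all windows and were not found in those of the 7 genes. All of these matches describe letters only.

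*Hk1* (ENSMUSG00000037012, chromosome 10 from 62268855 to 62379908, minus strand), the hexokinase of brain and red blood cells that binds mitochondria, had between 20 and 58 reads per mouse. Its level ran from 1.94 CPM through 2.10 to 2.68 CPM in the vehicle group and from 1.13 through 2.89 to 3.40 CPM in the indole group. The 7 vehicle-treated mice sat in the middle of the indole-treated mice, of which 4 (G5, G3, G8 and G7) lay above and 2 (G12 and G14) below all of them. The means hardly differed, the log2 fold change being 0.13 (standard error 0.219, 95% interval −0.33 to 0.59, adjusted *p*=0.998 from edgeR).

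*Hk3* (ENSMUSG00000025877, chromosome 13 from 55005985 to 55021385, minus strand), a hexokinase known from granulocytes and other myeloid cells that the study itself singled out in these libraries, ran from 0.6003 CPM through 0.773 to 1.37 CPM in the vehicle group and from 0.169 through 1.08 to 9.22 CPM in the indole group. Indole-treated mice G8, G3 and G2 lay above every vehicle-treated mouse, and indole-treated mice G12 and G5 lay below every one. Mouse G8 was at 8.82 times the mean that the rest of its group had, the largest such ratio among the 7 genes. The log2 fold change was 1.34 (95% interval −0.056 to 2.74, unadjusted *p*=0.0586 from edgeR), and without mouse G8 it was 0.30 (standard error 0.383, unadjusted *p*=0.446 from edgeR).

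*Hk2* (ENSMUSG00000000628, chromosome 6 from 82725025 to 82774454, minus strand), the insulin-regulated hexokinase of muscle and fat, had between 1 and 19 reads per mouse, too few for the expression filter of the test. The vehicle group held 47 reads in total and the indole group 39. The highest mice were G8 with 1.28 CPM, and then vehicle-treated mice G13 with 0.852 CPM and G11 with 0.609 CPM. All other mice lay between 0.0525 and 0.342 CPM. Without mouse G8 the indole group averaged 0.191±0.0883 CPM (SD, *n*=6). Fitted without the filter, the log2 fold change was −0.073 (standard error 0.573, 95% interval −1.23 to 1.09, adjusted *p*=0.999 from edgeR). Of 10 skeletal muscle markers, 5 had 0 reads in all mice, *Acta1* and *Myh4* among them, and the sum of the 10 was at most 1.02 CPM.

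*Hkdc1* (ENSMUSG00000020080, chromosome 10 from 62383137 to 62422491, minus strand) lies 3228 bases from *Hk1*, and both are on the same strand. It had between 0 and 14 reads per mouse, with 23 in all among vehicle-treated and 37 among indole-treated mice, and did not pass the filter. Its highest mice were G8 at 0.942 CPM and G7 at 0.509 CPM, both indole-treated, and then vehicle-treated mouse G1 at 0.412 CPM. In indole-treated mouse G12 a count of 0 among 26 hexokinase reads allows a share of reads of up to 13.2% (exact binomial 95% interval). Without mouse G8 the indole group averaged 0.220±0.171 CPM (SD, *n*=6), against 0.181±0.116 CPM (SD, *n*=7) with vehicle. The log2 fold change without the filter was 0.79 (standard error 0.647, 95% interval −0.52 to 2.10, adjusted *p*=0.762 from edgeR).

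Of the 7 genes, 5 passed the expression filter (*Hk1*, *Hk3*, *Gckr*, *Slc2a1* and *Slc2a2*). At an adjusted *p* below 0.05, 0 of the 5 and 0 of all 12653 genes tested were called by edgeR (0%). At an unadjusted *p* below 0.05, 0 of the 5 were called, against 3.81% of all genes tested. Without the filter edgeR called 0 of the 7 at an unadjusted *p* below 0.05, against 5.93% of the 22535 genes with a read. DESeq2, run on the same 22535 genes, called 1 of the 7 in that way, against 3.19% of all genes, and 0 at an adjusted *p* below 0.05. The 1 gene was *Hk3*, with an unadjusted *p*=0.0371 from DESeq2. These *p* values set the difference between the groups against the variation between mice, each of which gave 1 library.

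**Figure D2:**
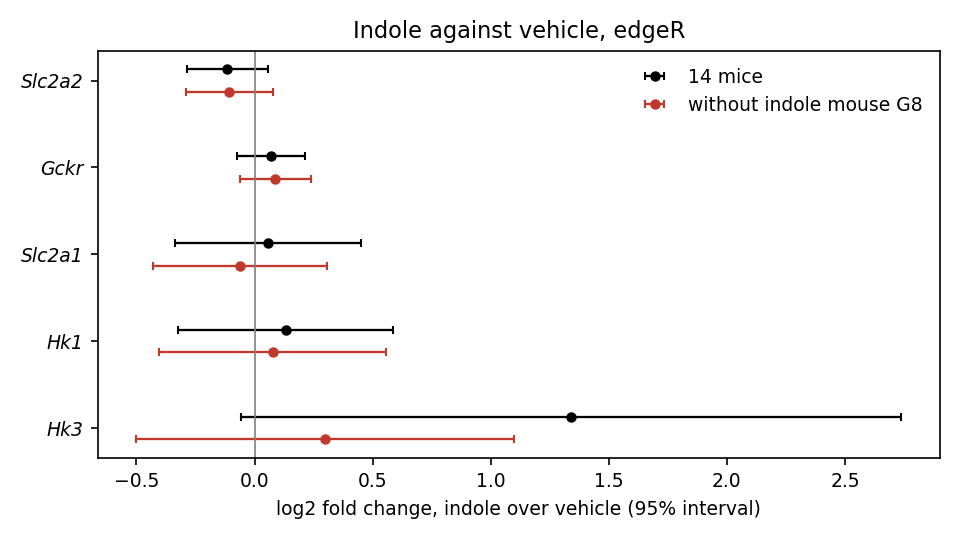
Log2 fold change of indole over vehicle with its 95% interval from edgeR for the 5 genes that passed the filter, with all 14 mice (black) and without indole-treated mouse G8 (red). All intervals include 0, and leaving out mouse G8 moved *Hk3* from 1.34 to 0.30 but the other genes by little.

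The composition of the hexokinase RNA was then compared within each mouse, which does not depend on the scaling between libraries. The 4 genes together had between 26 and 215 reads per mouse. In the vehicle group *Hk1* made up 45.2%±6.97 (SD, *n*=7) of their reads per kilobase, *Hk3* 38.9%±7.25, *Hk2* 9.90%±7.81 and *Hkdc1* 5.93%±3.51. In the indole group the shares were 41.5%±18.1 for *Hk1*, 46.1%±19.6 for *Hk3*, 6.18%±3.88 for *Hk2* and 6.202%±4.32 for *Hkdc1* (SD, *n*=7). *Hk1* and *Hk3* thus made up most of this RNA in both groups, and every mouse had 1 of them as its most abundant isoform.

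Exact permutation tests over all relabellings found no share that differed between the groups by more than the spread between mice. The difference was −3.75 percentage points for *Hk1* (two-sided exact *p*=0.639), 7.20 for *Hk3* (*p*=0.389), −3.73 for *Hk2* (*p*=0.2995) and 0.272 for *Hkdc1* (*p*=0.895), in 4 tests without adjustment. Without mouse G8, *Hk1* averaged 46.6% and *Hk3* 41.0% in the indole group, so that the difference for *Hk1* turned to 1.35 percentage points and that for *Hk3* fell to 2.08.

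Individual mice differed widely in this composition. *Hk3* held 76.9% of the reads per kilobase in mouse G8, 59.0% in G2 and 56.4% in G3, but 22.25% in G12 and 24.9% in G5, all of them indole-treated. As plain read counts, *Hk3* had 137 of 215 hexokinase reads in G8, or 63.7% (exact binomial 95% interval 56.9% to 70.2%), and 9 of 68 in G5, or 13.2% (6.23% to 23.6%). These intervals do not overlap, although they cover counting error only. The share of *Hk2* was highest in vehicle-treated mice G13 (24.2%) and G11 (16.1%). *Hk1* ranked first in 5 of 7 vehicle-treated and 3 of 7 indole-treated mice, and *Hk3* in the rest. With the CCDS transcript lengths, *Hk1* ranked first in 12 of 14 mice.

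**Figure D3:**
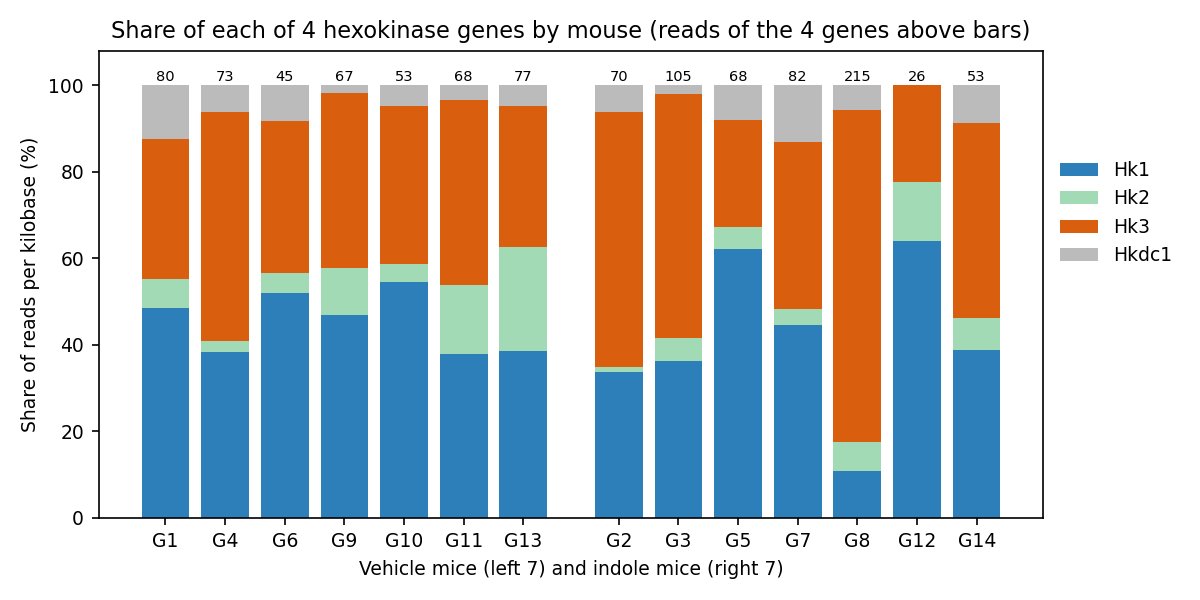
Share of *Hk1*, *Hk2*, *Hk3* and *Hkdc1* in the sum of their reads per kilobase, with 1 bar per mouse, vehicle on the left and indole on the right, and the number of reads on the 4 genes above each bar. *Hk3* takes 76.9% in mouse G8, and the *Hk1* and *Hk3* shares run over a wider range in the indole group than in the vehicle group.

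Spread between mice was compared with what counting alone would give. The coefficient of variation (CV) of CPM in the vehicle group was 5.95% for *Gckr* and 8.27% for *Slc2a2*, whose counting error was 1.98% and 0.904%. *Slc2a1* varied more, with a CV of 21.3% among vehicle-treated and 32.0% among indole-treated mice, against a counting error of 7.13% and 7.25%. In edgeR's model its variation between mice was 1.36 times that of the trend for genes of its abundance, a ratio larger than for 93.0% of the genes tested. For *Gckr* the ratio was 0.713, larger than for 11.5% of genes, and for *Hk1* it was 0.885, larger than for 56.1%. For *Hk3* it was 2.49, larger than for 98.7%. Without mouse G8 the ratio for *Hk3* was 1.25, larger than for 90.1% of genes.

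For *Hk1* the vehicle group varied by 12.7%, no more than the 15.7% that counting error gives, whereas the indole group varied by 34.5% with a counting error of 15.5%. For *Hk3* the CV was 30.1% in the vehicle group, with a counting error of 25.3%, and 142% in the indole group, or 64.5% without mouse G8. The mean absolute deviation from the group median of log2 CPM was compared between the groups for each gene. For *Hk3* it was 0.221 with vehicle and 1.053 with indole (exact permutation test over all relabellings, two-sided *p*=0.0490). This call was lost, with an exact *p* from 0.0571 to 0.102, in 8 of the 14 sets that leave out 1 mouse each (G1, G3, G6, G8, G9, G10, G11 or G13), and *p* was 0.0705 without G8.

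For *Hk1* the mean absolute deviation was 0.129 with vehicle and 0.414 with indole (*p*=0.140 from the same exact test). With deviations taken from the group mean in place of the median, an alternative chosen after seeing the data, *p* was 0.00117. The test treats the deviations as exchangeable, which holds only approximately, since they share an estimated centre. The other 5 genes gave a *p* from 0.286 to 0.839 by the exact permutation test, and the 7 tests were not adjusted.

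**Figure D4:**
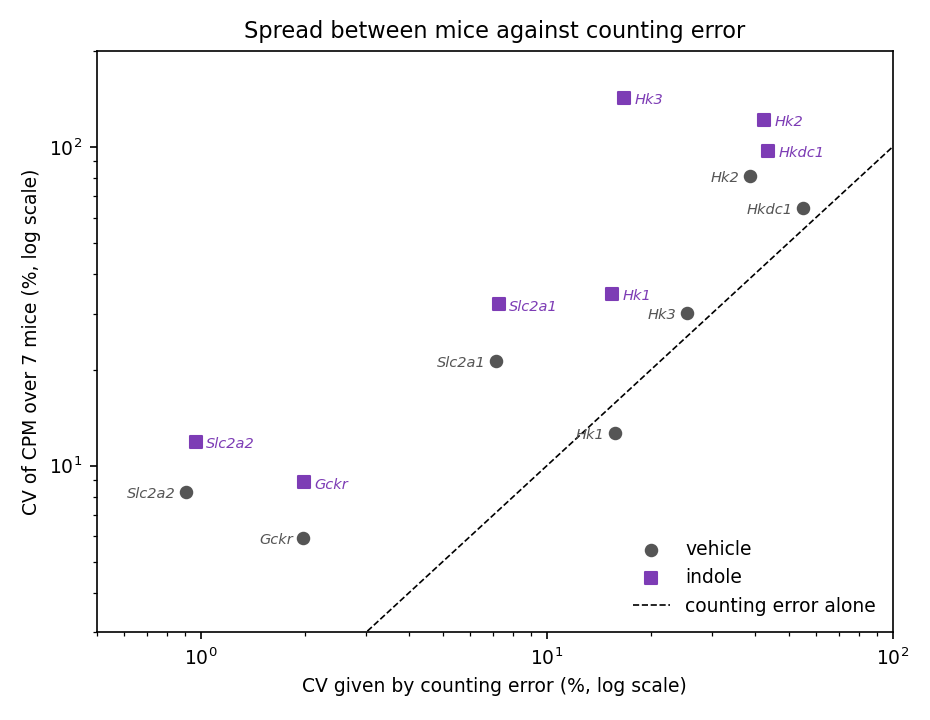
CV of CPM over the 7 mice of a group (vertical axis) against the CV that counting error alone gives at that number of reads (horizontal axis), both in percent on log axes, with the dashed line where they are equal. *Hk1* and *Hk3* of the vehicle group lie at or near the line at 12.7% and 30.1%, and the same genes in the indole group lie well above it at 34.5% and 142%.

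Liver tissue holds several cell types, and in bulk RNA fewer cells of a type and less RNA per cell cannot be told apart. The levels of the 5 genes tested were set beside the summed CPM of 8 marker lists over the 14 mice, in 40 relations. The relation of *Hk1* to the endothelial markers did not pass the threshold after adjustment, with Spearman's rho of 0.780 (permutation *p*=0.00144, adjusted over the 40 relations 0.0576) and Pearson's r of 0.691 on the log2 scale (permutation *p*=0.00587, adjusted 0.117). Without the 2 mice farthest from the median of that sum, G5 and G11, r was 0.672. Within the groups of 7, r was 0.375 for vehicle and 0.912 for indole.

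Mouse G5, which had the most *Hk1* at 3.40 CPM, also had the highest endothelial sum at 275 CPM. Mouse G12, which had the least *Hk1* at 1.13 CPM, had the lowest endothelial sum of the indole group at 150.5 CPM. Vehicle-treated mouse G11 lay lower still in that sum, at 143 CPM, with *Hk1* at 2.05 CPM. All 12 endothelial genes tested were higher in the indole group, with a median log2 fold change of 0.18 beside 0.0042 over all genes tested. Over all 12653 genes tested, 6489 were higher and 6164 lower. Of the 12 endothelial genes, 2 had an unadjusted *p* below 0.05 (*Clec4g* and *Eng*), against 3.81% of all genes tested. In edgeR 0 of the 12 had an adjusted *p* below 0.05. Other lists leaned as well. Of 21 macrophage genes, 20 were higher in the indole group (median 0.20, or −0.13 without mouse G8), and of 8 bile duct genes 7 were lower (median −0.32), with 0 genes of either list at an adjusted *p* below 0.05 in edgeR. The part of endothelial RNA in the level of *Hk1* was not tested.

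*Hk1* was also related to the stellate cell markers, with Pearson's r of 0.819 (permutation *p*=0.000480, adjusted 0.0192) and Spearman's rho of 0.653 (permutation *p*=0.0134, adjusted 0.148). Without mice G12 and G14, which had the lowest stellate sums and were removed together, r fell to 0.503, so the relation was weaker without this pair. Within the groups r was 0.555 for vehicle and 0.853 for indole. With the erythroid sum *Hk1* had Pearson's r of −0.185 (permutation *p*=0.524, adjusted 0.680). *Slc2a2* had Spearman's rho of −0.684 with the stellate sum (permutation *p*=0.00889) and −0.648 with the endothelial sum (permutation *p*=0.0148), each adjusted to 0.148. *Slc2a1* had Pearson's r of 0.606 with the macrophage sum (permutation *p*=0.0161, adjusted 0.147), and 0.303 without mice G8 and G10.

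For *Hk3*, Pearson's r with the macrophage sum was 0.754 (permutation *p*=0.00949, adjusted 0.127), but Spearman's rho was 0.275 (permutation *p*=0.339, adjusted 0.617). Without mice G8 and G10, removed together, r was 0.388, so that relation was weaker without this pair. Within the groups r was 0.475 for vehicle and 0.850 for indole. Of the 21 macrophage markers, 19 were highest in mouse G8, and of the 15 interferon gamma response genes 14 were. With the sum of the interferon gamma genes, a list added because of mouse G8, Pearson's r of *Hk3* was 0.768 (permutation *p*=0.0183, adjusted 0.147). Spearman's rho was 0.354 (permutation *p*=0.216, adjusted 0.521), and without mice G8 and G11 r was 0.188. Because the list was chosen for mouse G8, the r, rho and *p* values with this sum that include the mouse cannot test a relation. Within the groups r was 0.870 for vehicle and 0.801 for indole, and neither was tested. The vehicle-treated mice with the highest sums, G11 at 548 CPM and G4 at 506 CPM, also had the most *Hk3* of their group. The part of these 2 lists in the *Hk3* level of mouse G8 was not tested. Neutrophils are another known source of *Hk3*. The 14 neutrophil genes summed to 2.56 CPM in mouse G8, the highest of the indole group, where the other mice had 0.849 to 2.49 CPM. The vehicle group had 0.667 to 2.82 CPM, and *Ly6g* and *Camp* had 0 reads in all mice. These sums are of the same order as the level of *Hk3* itself, and the part of neutrophil RNA in it was not tested.

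**Figure D5:**
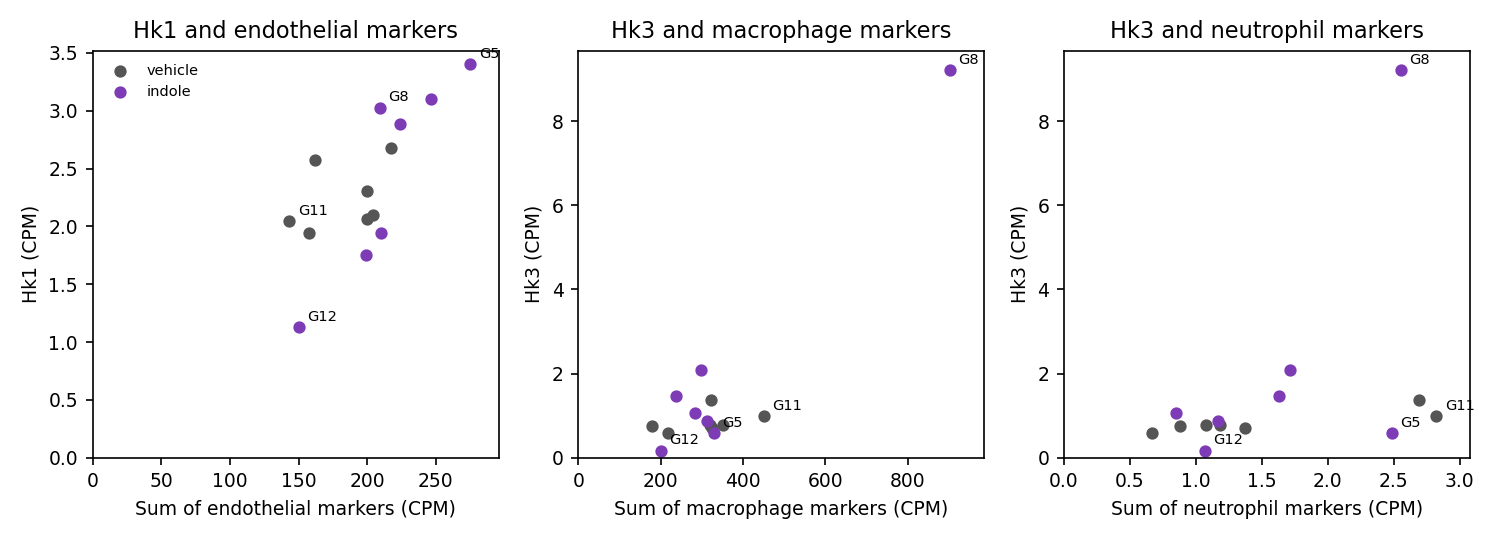
Level of *Hk1* against the summed CPM of 12 endothelial markers (left), and of *Hk3* against the sums of 21 macrophage (middle) and 14 neutrophil markers (right), with 1 point per mouse, all on linear axes. Within the indole group *Hk1* goes with the endothelial sum, from 1.13 CPM in mouse G12 to 3.40 CPM in G5, whereas vehicle-treated mouse G11 has the lowest sum with *Hk1* at 2.05 CPM. *Hk3* is set apart by mouse G8 alone at 9.22 CPM.

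The genes tested whose pattern over the 14 mice was most like each of the 5 were taken by Spearman's rho of log2 CPM, as a description. Being picked as the highest among all genes tested, these rho values are high by selection, and they were not tested. For *Hk1* these were *Msn* (rho 0.890), *Slc43a3* and *Plvap* (both 0.877), *BC002059* and *Calhm2* (both 0.864), of which *Plvap* encodes a protein of the diaphragms of endothelial fenestrae. For *Hk3* they were *Il2rb* (0.890), a receptor chain of T and NK cells, *Fkbp14* (0.846), *Stk17b*, *Akap17b* and the interferon-inducible *Ifi204* (each 0.833). With the summed T and NK cell markers, Spearman's rho of *Hk3* was −0.429 (permutation *p*=0.128, adjusted over the 40 relations 0.481). Pearson's r with that sum was −0.079, and −0.741 without mice G8 and G5. The sum was mostly *Zap70*, with 5681 reads over the 14 mice, where the next gene of the list, *Cd4*, had 287. Of the 14 genes of the list, 7 were highest in mouse G8. These relations therefore describe *Zap70* more than the list as a whole. *Slc2a1* was followed by *Gnb1* (0.921), *Snx12* (0.899), *Ptov1* (0.877), *Gnai2* (0.868) and *Crip1* (0.859). *Slc2a2* was followed by *Eif2s3x* (0.934), *Bmp2k* and *Hipk3* (both 0.916), *Atl3* and *Afdn* (both 0.908), and *Gckr* by *Zfp950* (0.895), *Rilp* (0.886), *Chd6* and *Dclre1a* (both 0.881) and *Dlg3* (0.877).

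The enzymes around the glucose 6-phosphate step were compared in the same fit. Of all 12653 genes tested in it, 6489 were higher and 6164 lower in the indole group. An unadjusted *p* below 0.05 was given by edgeR for 3.81% of them, the share beside which the counts below stand. Of 22 glycolytic genes below hexokinase, 15 were higher and 7 lower in the indole group, with a median log2 fold change of 0.021. *Bpgm*, which makes bisphosphoglycerate in red blood cells, was the only one of them with an unadjusted *p* below 0.05 (log2 fold change 0.20, unadjusted *p*=0.0406 from edgeR).

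Of 7 genes for glucose output, 5 were higher and 2 lower (median 0.029), with 0 at an unadjusted *p* below 0.05 in edgeR, and *Fbp1* had median levels of 2223 and 2337 CPM in vehicle- and indole-treated livers. Of 14 genes for the fates of glucose 6-phosphate, 9 were higher and 5 lower (median 0.030). Of these, *H6pd*, which oxidises glucose 6-phosphate in the endoplasmic reticulum, had a value of −0.27 on the log2 scale (standard error 0.0832, unadjusted *p*=0.00417 from edgeR), with 418 to 535 CPM in vehicle-treated and 306 to 428 CPM in indole-treated livers. *Gfpt1*, the entry enzyme of the hexosamine pathway, had a value of 0.27 (standard error 0.120, unadjusted *p*=0.0346 from edgeR). The most abundant gene of that list was *Ugp2*, with a log2 fold change of −0.024.

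Of 7 other sugar transporters tested, 4 were higher and 3 lower (median 0.018). The urate and sugar transporter *Slc2a9* was the most abundant (log2 fold change −0.12), and the sodium-glucose cotransporter *Slc5a1* was at 1.96 to 3.79 CPM in vehicle-treated and 1.16 to 2.99 CPM in indole-treated livers (log2 fold change −0.52, standard error 0.202, unadjusted *p*=0.0174 from edgeR). Of 11 other sugar kinases 7 were higher and 4 lower (median 0.041), led in abundance by *Tkfc* of fructose metabolism (log2 fold change 0.12). Of 16 regulators 8 were higher and 8 lower (median 0.0021), and *Hnf4a*, the most abundant, had a log2 fold change of −0.072. In both of these lists edgeR gave 0 genes past the unadjusted threshold. The median over all 12653 genes tested was 0.0042, and all genes named in these lists had an adjusted *p* of 0.998 from edgeR.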

How the data were processed

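Per the labels and the study's methods, strand-specific mRNA libraries of liver were aligned by the authors with HISAT2 to GRCm38 (Ensembl version 102), and uniquely mapped reads were deposited as raw counts per gene, without normalisation. The counting tool and its strand setting are not given in the sources used here. Antisense genes that overlap *Hk1*, *Hk2*, *Slc2a1* and *Slc2a2* had at most 5 reads in total, and *Unc5a* shares 34 bases with *Hk3*.

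Members, gene lists and the rule for named genes were chosen with earlier results of these data known. The rule took the 7 genes, the most abundant member of each pathway list and those with an unadjusted *p* below 0.05, and the 5 genes most like each tested member. The result for 1 gene that met the rule is not reported here. Groups were compared with edgeR 4.0.16 (TMM, filterByExpr, robust quasi-likelihood test, Benjamini–Hochberg over 12653 genes) in R 4.3.3. The standard error is the log2 fold change divided by the square root of F. CPM used TMM-scaled library sizes, and log2 CPM a prior count of 2. Shares and deviations were compared by exact permutation, and relations with marker sums by 100000 permutations. Gene lengths were taken from the deposited table, with GENCODE M21 transcripts as an alternative. Promoter windows came from RefSeq, which had all 7 genes. The fits were tested on simulated data. Alternatives were DESeq2 1.42.0, limma 3.58.1 voom with quality weights, RLE and upper quartile scaling, other filters, a non-robust fit, a surrogate variable estimated with sva 3.50.0, other lengths, scales and centres, and leaving out each mouse.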

Additional observations from a re-analysis of the deposited data

Results flagged for a closer look

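For each group, the distance of the highest or lowest mouse from the next one was expressed as a share of the group's range, for the CPM of the 7 genes, the 4 hexokinase shares, the transporter ratio and the reads counted on genes. Of 26 such comparisons, 2 exceeded Dixon's 95% critical value of 0.568, where chance gives about 1 in 20, or 1.3. Both were indole-treated mouse G8 as the highest mouse, with a gap of 0.788 of the range for *Hk3* and 0.781 for *Hk2*. The second rests on 19 reads in G8, against 1 to 6 in the other indole-treated mice.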

How the results depend on the processing

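The number of genes with an adjusted *p* below 0.05 was 0 in the reported fit and 1 with DESeq2 on the same genes (*Cyp2c29*, a cytochrome P450 gene outside the 7, named after its values were seen), and the number with an unadjusted *p* below 0.05 rose from 482 to 1336 without a filter on low counts (382 to 620 when 1 mouse was left out). None of the members was called at an adjusted *p* below 0.05 under any alternative run. The log2 fold change of *Slc2a1* changed sign with 1 surrogate variable (−0.031) and ranged from −0.062 to 0.15 when 1 mouse was left out. That of *Hk3* ranged from 0.30 (without G8) to 1.55 in the same way, and was 0.47 with limma voom. Its unadjusted *p* passed 0.05 with DESeq2, in the non-robust fit and without G5, G12 or G14. In leave-one-out sets the share difference ran from −7.51 to 1.35 percentage points for *Hk1* and from −0.877 to 1.35 for *Hkdc1*, and the difference in mean absolute deviation from 0.512 to 1.01 for *Hk3*, 0.141 to 0.353 for *Hk1* and −0.345 to 0.0437 for *Hk2*. For *Hk1* that difference passed the threshold when deviations were taken from the group mean (0.32, exact *p*=0.00117) and without G3, G5, G7 or G8. For *Hk2* it turned to 0.0026 on CPM without the log. A group of 7 always contains a deviation of 0 from its own median and a group of 6 need not, so this test changes with the removal of any mouse. The longest CCDS length moved the level of *Hk1* to 0.550 and of *Gckr* to 71.3 CPM per kilobase. Depth limits *Hk2* and *Hkdc1*, with a median of 3.5 reads per mouse each. No paired analysis was possible because the groups share no replicate numbers.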
